A study of Mus musculus with 24 samples.

Results

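The glypicans and syndecans are the 2 families of cell surface heparan sulfate proteoglycans, and all 10 mouse members (Gpc1 to Gpc6 and Sdc1 to Sdc4) were followed here among 19937 genes measured in hindlimb buds. Each member was taken by its gene symbol, and each had 1 probe set with that symbol alone. RNA came from both hindlimb buds of each of 12 Nipbl+/- embryos and 12 wild type littermates at E10.5, matched by stage, with 1 Affymetrix array per embryo. The mutants were heterozygous for Nipbl, the cohesin loading factor, in every tissue (RRS strain), and the controls carried 2 wild type alleles. Values are log2 intensities normalized by the authors with RMA, so a difference of 1 is a 2-fold change. Differences are Nipbl+/- minus wild type and were tested with limma over all genes, with calls at an adjusted p under 0.05 (Benjamini-Hochberg). Where a bulk level differs, fewer cells of a type and less RNA per cell cannot be told apart.

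Glypicans are held in the outer leaflet of the plasma membrane by a glycosylphosphatidylinositol (GPI) anchor, whereas syndecans span the membrane and carry a short cytoplasmic tail. Both bear heparan sulfate chains, whose sulfation pattern sets how well they bind Fgf, Wnt, Bmp and Hedgehog ligands at the cell surface. In limbs, loss of human GPC6 shortens the long bones, changes in human GPC4 affect the digits, and loss of GPC3 causes overgrowth.

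Gpc6 and Gpc4 rose and Sdc2 fell in Nipbl+/- hindlimb buds, while the other 7 members did not pass the test. Over all genes tested, 0.286% were called higher and 0.527% lower, against 2 higher and 1 lower of the 10 members. At an unadjusted p under 0.05, 2 members were higher and 4 lower, where the shares over all genes were 4.13% and 5.14%. The rises of Gpc4 and Gpc6 were known when the members were chosen, so these counts are a description and not a test of the families. The median log2 difference of the members was -0.073, beside -0.0049 over all genes. Nipbl itself had a log2 intensity of 9.86 ± 0.12 in Nipbl+/- and 10.52 ± 0.12 in wild type embryos (SD, n = 12 each), and its values did not overlap between the genotypes.

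Gpc4 and Gpc3 lie side by side on the X chromosome, where Gpc4 rose and Gpc3 did not pass the test, and the sequences at their starts are shown for that reason. Each covers 250 bases before and 50 after the RefSeq start in GRCm38.p6, 5′ to 3′ on the gene's strand, with capitals marking matches on either strand to the GC box GGGCGG, the TATA box TATAAA, the CCAAT box and the E-box CACGTG.
Gpc4, chrX:52164874-52165173, minus strand: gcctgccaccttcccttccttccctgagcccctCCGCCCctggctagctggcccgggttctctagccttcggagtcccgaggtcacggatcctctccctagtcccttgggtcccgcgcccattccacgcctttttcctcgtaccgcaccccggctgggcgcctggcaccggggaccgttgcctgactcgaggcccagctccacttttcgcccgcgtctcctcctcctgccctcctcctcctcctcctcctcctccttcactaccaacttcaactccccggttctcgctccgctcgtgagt
Gpc3, chrX:52613925-52614224, minus strand: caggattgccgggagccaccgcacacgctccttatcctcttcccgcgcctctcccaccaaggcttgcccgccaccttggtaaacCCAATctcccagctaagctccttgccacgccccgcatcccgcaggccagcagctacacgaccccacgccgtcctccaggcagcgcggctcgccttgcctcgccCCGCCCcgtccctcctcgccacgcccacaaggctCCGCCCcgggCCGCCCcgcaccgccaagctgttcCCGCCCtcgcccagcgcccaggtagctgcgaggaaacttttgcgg
The Gpc4 stretch held 1 GC box and the Gpc3 stretch held 4 and 1 CCAAT box, none overlapping another, and neither held TATAAA or CACGTG. Of 32851 promoters of this length, 35.7% held a GC box, 13.6% a TATA box, 37.4% a CCAAT box and 7.15% the E-box. GC content was 66.7% for Gpc4 and 70.7% for Gpc3, above the median of 52.7%. RefSeq sequences were matched for 7 members. No matched sequence was available for Gpc1, Gpc6 or Sdc2.

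Sdc2, a syndecan known from mesenchymal cells and fibroblasts, had the largest difference of the 10 members. Its log2 intensity had a lowest value of 9.10, a median of 9.32 and a highest value of 9.52 in Nipbl+/- embryos, against 9.44, 9.65 and 9.74 in wild type embryos. Every one of the 12 mutants lay below the wild type mean, and 10 of them lay below the lowest wild type embryo. The ratio of mutant to wild type was 0.813 (95% interval 0.760 to 0.869), with a log2 difference of -0.30 (standard error 0.047, limma adjusted p = 8.41e-04). The call held in all 10 other settings (adjusted p between 3.86e-05 and 0.00814) and in each of 24 fits that left out 1 embryo (0.000365 to 0.00222). Sdc2 is on chromosome 15, as is Nipbl. Of the 10 nearest measured genes, 5 on each side, 0 were called by limma, and 3 had an unadjusted p under 0.05: Atpsckmt (ratio 0.883, limma adjusted p = 0.103), Sema5a (0.922, 0.245) and Laptm4b (1.12, 0.0884). The shares over all genes were 0.286% called higher and 0.527% lower, and 4.13% and 5.14% at an unadjusted p under 0.05. The neighbours named here were chosen after their values were seen.

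Among the other syndecans, Sdc1 and Sdc3 had ratios under 1 that did not pass the test, and Sdc4 was close to 1. Sdc3, first known as N-syndecan and present in the precartilage mesenchyme of the chick limb, had 9.44, 9.58 and 9.75 (lowest, median, highest) in Nipbl+/- embryos and 9.58, 9.70 and 9.91 in wild type embryos. Of the mutants, 10 lay below the wild type mean and 6 below the lowest wild type embryo, although the groups overlapped. The ratio of Sdc3 was 0.917 (95% interval 0.865 to 0.973, limma adjusted p = 0.217). Sdc1, the main syndecan of epithelia, had 11.18, 11.31 and 11.40 in Nipbl+/- embryos and 11.27, 11.35 and 11.58 in wild type embryos. Its ratio was 0.946 (95% interval 0.900 to 0.995, limma adjusted p = 0.452), and 11 of 12 mutants lay below the wild type mean. Wild type replicates 1 to 6 were at most 11.34, and replicates 7 to 12 were at least 11.37. Sdc4, a component of focal adhesions, had a ratio of 1.01 (95% interval 0.946 to 1.08, limma adjusted p = 0.984), so a fall as large as that of Sdc2 lay outside its interval.

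**Figure D1:**
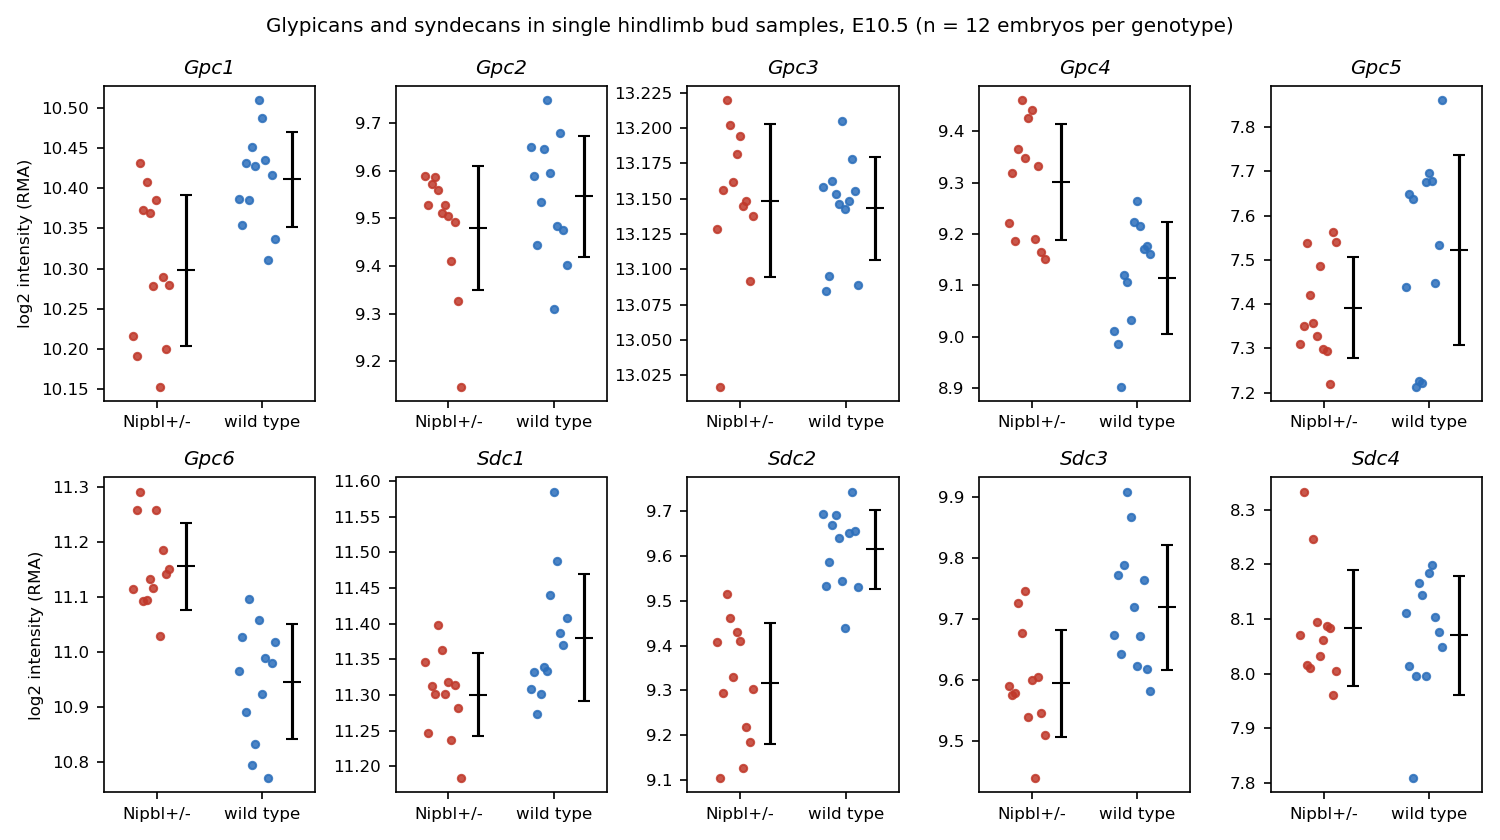
Log2 intensity (RMA) of each glypican and syndecan in 12 Nipbl+/- (red) and 12 wild type (blue) embryos, 1 point per embryo, with the mean and SD in black; each panel has its own vertical axis. Sdc2 was at most 9.52 in Nipbl+/- embryos and at least 9.44 in wild type embryos, and Gpc6 was at least 11.03 in Nipbl+/- embryos and at most 11.10 in wild type embryos.

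Gpc6, a glypican that promotes Hedgehog signalling in the growth plates of mouse long bones, was higher in Nipbl+/- hindlimb buds. Its log2 intensity had a lowest value of 11.03, a median of 11.14 and a highest value of 11.29 in Nipbl+/- embryos, against 10.77, 10.97 and 11.10 in wild type embryos. The groups overlapped little, with 9 of 12 mutants above the highest wild type embryo and 10 of 12 wild type embryos below the lowest mutant. The ratio was 1.16 (95% interval 1.09 to 1.22), with a log2 difference of 0.21 (standard error 0.040, limma adjusted p = 0.00492). The call held in all 10 other settings (0.00140 to 0.0293) and in all 24 fits without 1 embryo (0.00365 to 0.0120). Gpc5, its neighbour on chromosome 14, had 7.22, 7.35 and 7.56 in Nipbl+/- embryos and 7.21, 7.59 and 7.86 in wild type embryos. Its difference pointed the other way, with a log2 difference of -0.13 (95% interval -0.27 to 0.0056, limma adjusted p = 0.575), and the wild type embryos had the widest spread of any member in either genotype (SD 0.21, n = 12). Of the 10 measured genes nearest to Gpc6, 0 were called by limma and 1, the transporter gene Abcc4, had an unadjusted p under 0.05 (ratio 1.08, limma adjusted p = 0.312). At that unadjusted threshold, 4.13% of all genes were higher and 5.14% lower.

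Gpc4, which binds Wnt and Fgf ligands, was higher by a similar amount but stood at the threshold. Its log2 intensity had a lowest value of 9.15, a median of 9.33 and a highest value of 9.46 in Nipbl+/- embryos, against 8.90, 9.14 and 9.26 in wild type embryos. All 12 mutants lay above the wild type mean, 7 of them above the highest wild type embryo. The wild type values fell in 2 sets by replicate number. Replicates 1 to 6 were at most 9.12, below every mutant, and replicates 7 to 12 were at least 9.16, within the mutant range. The wild type mean is taken over both sets. The ratio was 1.14 (95% interval 1.07 to 1.22), with a log2 difference of 0.19 (standard error 0.046, limma adjusted p = 0.0499). It no longer passed after array medians were set to 0 (limma adjusted p = 0.125), with an embryo sex covariate (0.144), with replicate number as a block (0.0532) or by a t-test of linear intensities (0.0518), and it passed in 6 of 10 other settings, from 0.00574 upward. In 1 of those 6, the mean of all probe sets, the Gpc4 values were the same as in the main fit, as it had 1 probe set. The 0.00574 came with a covariate taken from these same data, the first principal component after genotype means were removed. That covariate leaves the log2 difference unchanged and can only alter its standard error. It was also lost in 17 of the 24 fits that left out 1 embryo (adjusted p from 0.0384 to 0.0983 over the 24), and was kept without Nipbl+/- replicate 3, 9, 11 or 12 or without wild type replicate 7, 8 or 9. The log2 difference stayed between 0.17 and 0.20 in those fits.

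**Figure D2:**
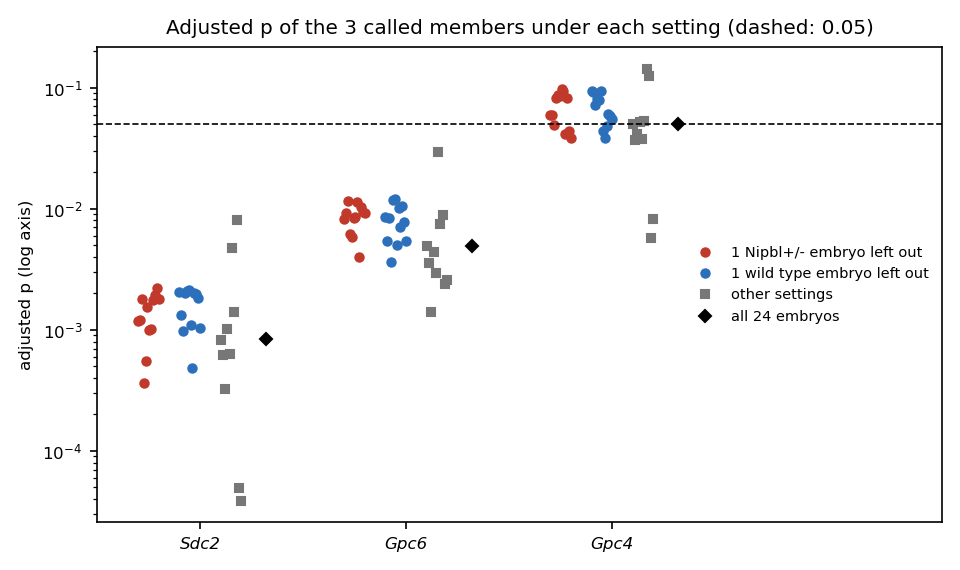
Adjusted p (log axis) of Sdc2, Gpc6 and Gpc4 with 1 Nipbl+/- embryo left out (red), 1 wild type embryo left out (blue), in the 10 other settings (grey) and with all 24 embryos (black); the dashed line is 0.05. Points of Sdc2 and Gpc6 lie below the line, and those of Gpc4 lie on both sides of it, from 0.00574 to 0.144.

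Gpc3, a glypican that inhibits Hedgehog signalling and restrains growth, did not share the difference of its neighbour Gpc4. Its log2 intensity had a lowest value of 13.02, a median of 13.15 and a highest value of 13.22 in Nipbl+/- embryos, against 13.08, 13.15 and 13.21 in wild type embryos. The medians were alike, and the lowest value came from Nipbl+/- replicate 2, the array with the highest median over all probe sets (7.39). The log2 difference was 0.0055 (95% interval -0.051 to 0.062, limma adjusted p = 0.988), so a rise of the size of the Gpc4 difference lay outside the interval. Gpc3 was among the brightest genes (percentile 99.7 of the genes' mean intensities). Whether the array shows differences in full at that level was not tested. Hs6st2, a heparan sulfate 6-O-sulfotransferase gene on the other side of Gpc4, had a ratio of 0.969 (limma adjusted p = 0.938). Of the 10 measured genes nearest to Gpc4, Gpc3 and Hs6st2 included, 0 were called by limma and 1, Mir363, had an unadjusted p under 0.05 (ratio 0.861, limma adjusted p = 0.523). At that unadjusted threshold, 4.13% of all genes were higher and 5.14% lower.

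Gpc3 and Gpc4 are X-linked, and the sexes were not balanced, with 3 females among 12 Nipbl+/- embryos and 8 among 12 wild type embryos by Xist and Y-linked genes. In a fit with genotype and sex, the female minus male log2 difference was -0.0057 (standard error 0.031) for Gpc3 and -0.013 (standard error 0.052) for Gpc4, and neither passed the test (limma adjusted p = 0.999985 for both). Among females, Gpc4 ran from 9.15 to 9.44 in 3 Nipbl+/- embryos and from 8.99 to 9.26 in 8 wild type embryos. Among males, it ran from 9.16 to 9.46 in 9 Nipbl+/- embryos and from 8.90 to 9.22 in 4 wild type embryos. The log2 difference was thus 0.14 (standard error 0.079) within females and 0.21 (standard error 0.070) within males, and neither passed the test alone (limma adjusted p = 0.665 and 0.346). Gpc6 had a log2 difference of 0.17 (standard error 0.065) within females and 0.28 (standard error 0.058) within males (limma adjusted p = 0.443 and 0.0511). Sdc2 had -0.32 (standard error 0.080) within females and -0.31 (standard error 0.071) within males (limma adjusted p = 0.126 and 0.0757). With a continuous sex score (Xist minus Y-linked genes) as a covariate over all 24 embryos, Gpc6 and Sdc2 passed the test.

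Gpc1, a ubiquitous glypican that acts on Fgf signalling in the mouse brain, and Gpc2, a glypican of developing neurons, both had ratios under 1. Gpc1 had 10.15, 10.28 and 10.43 (lowest, median, highest) in Nipbl+/- embryos and 10.31, 10.42 and 10.51 in wild type embryos. There were 7 of 12 mutants below the lowest wild type embryo, yet 5 overlapped the wild type range. The ratio of Gpc1 was 0.924 (95% interval 0.878 to 0.973) and did not pass the test (log2 difference -0.11, standard error 0.036, limma adjusted p = 0.193). It passed in 1 of 10 other settings, with the interquartile range of each array as a covariate (limma adjusted p = 0.0455). Gpc2 had 9.15, 9.52 and 9.59 in Nipbl+/- embryos and 9.31, 9.56 and 9.75 in wild type embryos, a ratio of 0.955 (95% interval 0.887 to 1.03, limma adjusted p = 0.792).

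**Figure D3:**
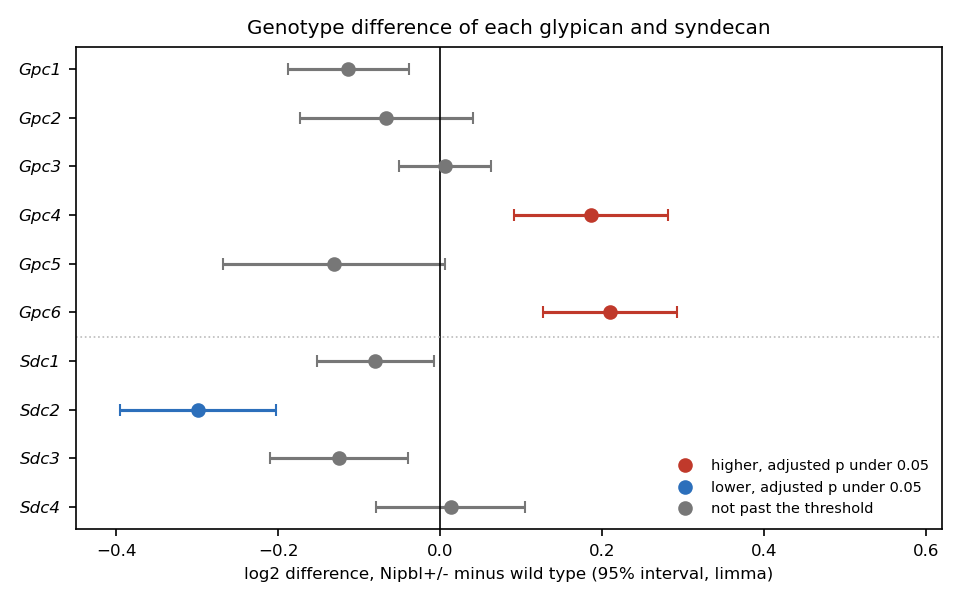
Log2 difference of each member, Nipbl+/- minus wild type (12 embryos per genotype), with the 95% interval from limma as bars; members higher at an adjusted p under 0.05 are red, the lower one is blue and the others are grey. The interval of Sdc2 runs from -0.40 to -0.20, and those of Gpc4 and Gpc6 lie above 0.

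The pair Gpc4 and Gpc6 was set apart because both rose, so its contrast with the other members is a description. Their mean log2 difference was 0.20, and that of the other 8 members was -0.100, with a range from -0.30 to 0.013 and 6 of 8 below 0. Both members of the pair thus stood above all others, and the lower end was set by Sdc2.

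The members varied little between embryos of 1 genotype, with SDs from 0.036 (Gpc3, wild type) to 0.21 (Gpc5, wild type). Deviations from the genotype means were compared over the 24 embryos for all 45 pairs (permutation tests within genotype, two-sided, Benjamini-Hochberg over the pairs). Of the pairs, 4 went together and 2 went opposite at an adjusted p under 0.05, with r from -0.60 to 0.71. The opposite pairs were Gpc5 with Sdc3 (r = -0.60, with -0.21 within Nipbl+/- and -0.80 within wild type embryos) and Gpc5 with Gpc2 (r = -0.56, with -0.42 and -0.68). The share of other gene pairs that would pass was not tested. The correlation of Gpc4 and Gpc6 did not pass the test (r = 0.094, permutation p = 0.670, adjusted p = 0.815; rho = 0.042, permutation p = 0.849, adjusted p = 0.868; r = 0.018 within Nipbl+/- and 0.16 within wild type embryos). Leaving out the 2 embryos farthest from the median of Gpc4 gave r = 0.042. The neighbours Gpc5 and Gpc6 had r = 0.30 (permutation p = 0.205, adjusted p = 0.425; rho = 0.27, permutation p = 0.234, adjusted p = 0.390), with 0.12 within Nipbl+/- and 0.37 within wild type embryos, and 0.48 without the 2 farthest embryos.

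The neighbours Gpc3 and Gpc4 had r = 0.49 (permutation p = 0.0151, adjusted p = 0.0782) and rho = 0.62 (permutation p = 0.00204, adjusted p = 0.0229). Within Nipbl+/- embryos r was 0.48 and within wild type embryos 0.53, and without the 2 farthest embryos it was 0.63. The highest r was that of Gpc4 and Sdc1, 0.71 (permutation p = 9.00e-05, adjusted p = 0.00405; rho = 0.73, permutation p = 6.00e-05, adjusted p = 0.00270), with 0.59 within Nipbl+/- and 0.83 within wild type embryos and 0.63 without the 2 farthest embryos. In wild type embryos both genes were lower in replicates 1 to 6 than in any of replicates 7 to 12. Gpc4 was at most 9.12 against at least 9.16, and Sdc1 at most 11.34 against at least 11.37. The permutations did not keep these 2 sets apart, so the p-values do not allow for the step. The labels do not say whether anything separates the sets. Sdc2 went most with Gpc3 (r = 0.68, permutation p = 4.20e-04, adjusted p = 0.00855; rho = 0.73, permutation p = 1.60e-04, adjusted p = 0.00360), with 0.80 within Nipbl+/- and 0.41 within wild type embryos and 0.58 without the 2 farthest embryos. The array itself moved with several members: the deviation of the array median had r = -0.62 with Gpc3, -0.60 with Sdc1, -0.49 with Sdc2 and -0.47 with Gpc4, against 0.048 with Gpc6. With array medians set to 0, 16 pairs went together and 0 went opposite by the same permutation test (r = 0.71 for Gpc3 and Gpc4, adjusted p = 4.50e-04, for Gpc4 and Gpc6 0.35, permutation p = 0.109, adjusted p = 0.186, and for Gpc5 and Gpc6 0.46, permutation p = 0.0467, adjusted p = 0.10), and both genes of a pair then share the subtracted median.

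**Figure D4:**
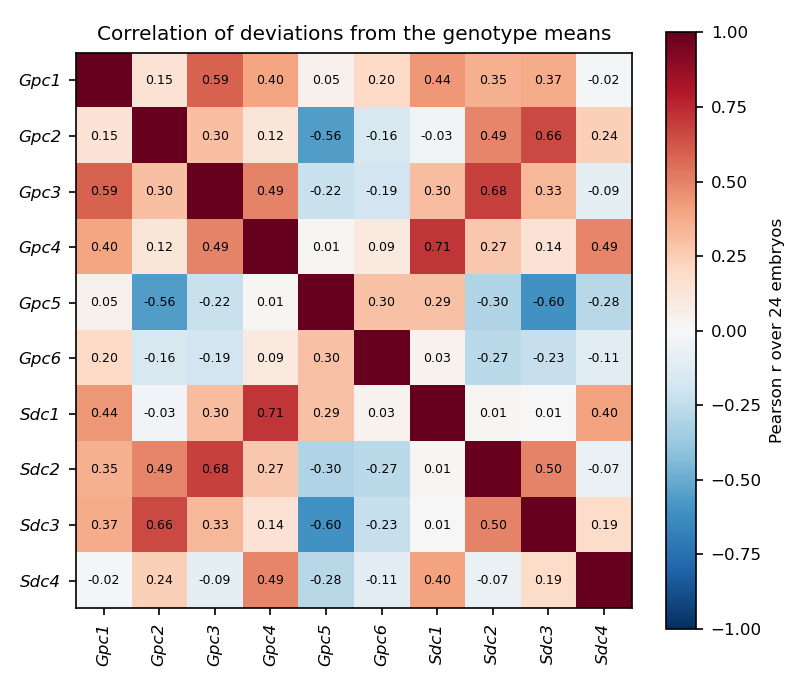
Pearson r over 24 embryos between the deviations of each pair of members from their genotype means, from -1 (blue) to 1 (red). Gpc4 and Sdc1 have the highest value, 0.71, and Gpc4 and Gpc6, which both rose, have 0.094.

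Around the core proteins, 6 lists covered the genes that build, pattern, trim and release heparan sulfate proteoglycans, and 86 of their genes were measured. Of these, 0 were called higher and 3 lower by limma: Pcsk6, Sulf1 and Hs3st1. Over all genes tested, 0.286% were called higher and 0.527% lower, and 4.13% and 5.14% had an unadjusted p under 0.05. These shares stand beside the counts of each list below. Chain synthesis, from the linker enzymes Xylt1 and Xylt2 to the polymerases Ext1 and Ext2, had 0 of 20 genes called by limma (0 also at an unadjusted p under 0.05), with a median log2 difference of 0.0087. The smallest p in each direction belonged to Extl3 (ratio 1.05, limma adjusted p = 0.592) and Xylt1 (0.953, 0.685).

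Of 15 genes that modify the chain, 0 were called higher and 1 was called lower (median log2 difference -0.022). The lower one was Hs3st1, a 3-O-sulfotransferase that makes the antithrombin-binding form of the chain. Its log2 intensity had a lowest value of 5.66, a median of 5.91 and a highest value of 6.18 in Nipbl+/- embryos, against 5.96, 6.15 and 6.31 in wild type embryos. The ratio was 0.845 (log2 difference -0.24, standard error 0.051, limma adjusted p = 0.0115), at a dim level (percentile 25.4 of the genes' mean intensities), and the call was lost with an embryo sex covariate (0.0523). At an unadjusted p under 0.05, 2 genes of this list were higher and 2 lower, Hs3st1 among the latter. Hs6st1, a 6-O-sulfotransferase, had a ratio of 0.930 with all 12 mutants below the wild type mean (limma adjusted p = 0.301). Hs3st3a1, another 3-O-sulfotransferase, had 1.13 (limma adjusted p = 0.378), and the epimerase gene Glce had 1.06 (limma adjusted p = 0.487).

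Of 15 genes for trimming and release outside the cell, 0 were called higher and 2 were called lower (median log2 difference -0.041). At an unadjusted p under 0.05, 0 were higher and 4 lower. Those without a call were Mmp16 (ratio 0.895, limma adjusted p = 0.208) and Mmp14 (0.918, 0.451). Pcsk6, a proprotein convertase of the furin family, which process many growth factors, had 8.01, 8.10 and 8.28 (lowest, median, highest) in Nipbl+/- embryos and 8.23, 8.26 and 8.42 in wild type embryos. All 12 mutants lay below the wild type mean, and the groups overlapped in a narrow range. The ratio was 0.885 (log2 difference -0.18, standard error 0.033, limma adjusted p = 0.00374), and the call was lost with sex and array medians adjusted together (0.0682). Sulf1, the sulfatase that removes 6-O-sulfate from chains at the cell surface, had 7.78, 8.05 and 8.36 in Nipbl+/- embryos and 7.99, 8.36 and 8.59 in wild type embryos. The ratio was 0.814 (log2 difference -0.30, standard error 0.071), and all 12 mutants lay below the wild type mean. The Sulf1 call was lost in 16 of the 24 fits without 1 embryo (adjusted p = 0.0375 with all, 0.00788 to 0.0757 over the 24, from limma).

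The other lists had no call. Of 11 other heparan sulfate proteoglycans, 0 were called by limma and 1 was lower at an unadjusted p under 0.05 (median log2 difference -0.034): the receptor Nrp1, with a ratio of 0.883 (limma adjusted p = 0.229). Perlecan, encoded by Hspg2, had a ratio of 1.01 (limma adjusted p = 0.973). Of 15 partners of the syndecan tail or of syndecan adhesion, 0 were called by limma, and without adjustment 1 was higher and 1 lower at p under 0.05 (median log2 difference -0.027). These were the Rac activator Tiam1 (ratio 1.07, limma adjusted p = 0.487) and fibronectin, encoded by Fn1 (0.906, 0.114), for which all 12 mutants lay below the wild type mean. Of 10 genes for making, attaching or remodelling the GPI anchor of glypicans, 0 were called and 0 had an unadjusted p under 0.05 by limma (median log2 difference 0.0088).

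**Figure D5:**
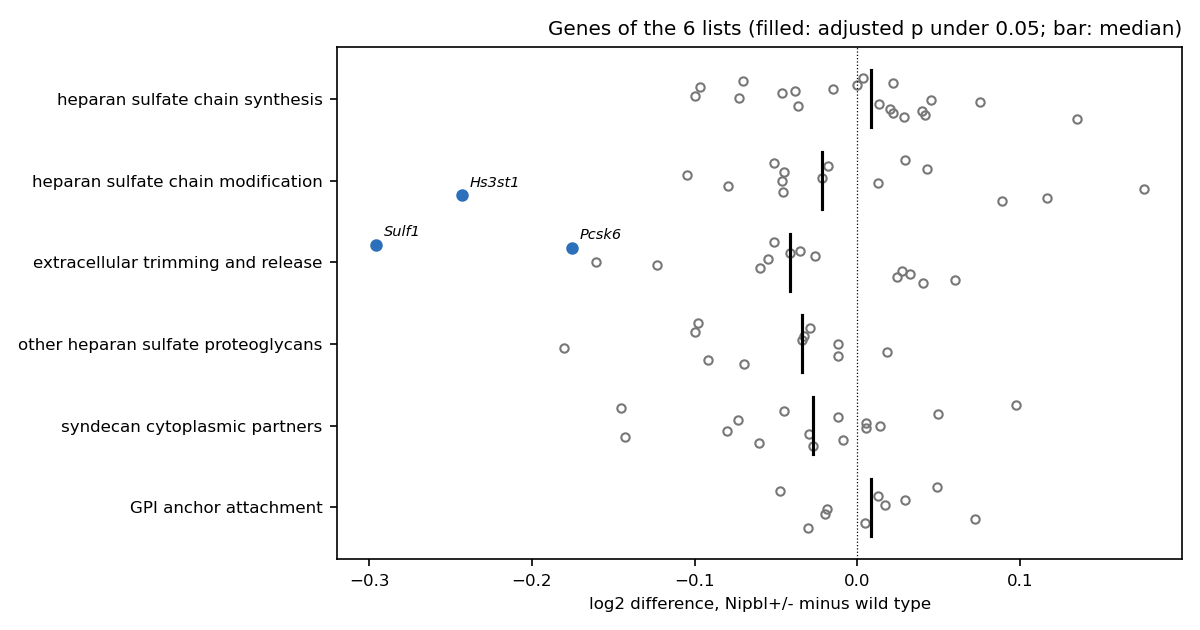
Log2 difference, Nipbl+/- minus wild type, of each measured gene in 6 lists around the heparan sulfate proteoglycans; filled points passed an adjusted p under 0.05 and bars are list medians. The 3 filled points, Hs3st1, Sulf1 and Pcsk6, lie below 0.

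Limb mesenchyme markers were bright in every sample, with a mean log2 intensity over 9 genes from 11.29 to 11.43 in Nipbl+/- and from 11.31 to 11.43 in wild type embryos, and 1 of them, Lhx9, was higher (ratio 1.11, limma adjusted p = 0.00698). At an unadjusted p under 0.05, 2 were higher, Lhx9 and Hoxd10 (ratio 1.06, limma adjusted p = 0.312), and 1 was lower, Hand2 (0.919, 0.208). Over all genes, 0.286% were called higher and 0.527% lower. Without adjustment the shares were 4.13% and 5.14%. Of 13 ectoderm and ridge markers, the cells where Sdc1 is known from epithelia, 0 were called higher and 1 was called lower, Krt5 (ratio 0.806, limma adjusted p = 0.00171). At an unadjusted p under 0.05, 2 were higher, Epcam (ratio 1.11, limma adjusted p = 0.254) and Sp8 (1.09, 0.487), and 1 was lower, Krt5. The median log2 difference of this list was 0.025. The list mean ran from 9.02 to 9.41 in Nipbl+/- and from 9.04 to 9.26 in wild type embryos. Of 10 macrophage markers, 0 were called by limma and 4 were lower at an unadjusted p under 0.05, with list means from 6.50 to 6.66 in Nipbl+/- and from 6.53 to 6.81 in wild type embryos. Each of the 10 had a log2 difference below 0, with a median of -0.109, beside -0.0049 over all genes. The 4 lower without adjustment were C1qb (ratio 0.848, limma adjusted p = 0.147), Mrc1 (0.866, 0.388), Tyrobp (0.900, 0.416) and Csf1r (0.915, 0.247). None of them was among the dimmest 25% of genes, whereas the defining macrophage genes Adgre1 and Aif1 were. Of 6 nerve and Schwann cell markers measured, 1 was higher, Erbb3 (ratio 1.19, limma adjusted p = 0.0499), with list means from 6.89 to 7.12 in Nipbl+/- and from 6.77 to 7.02 in wild type embryos. Endothelial, erythroid, muscle precursor and flank or neural tube lists had 0 calls by limma, with 1 endothelial gene lower and 1 muscle precursor gene higher at an unadjusted p under 0.05, and Sox2 and Pax6 of the neural tube were among the dimmest 25%. The part of these cell types in the differences of Gpc4, Gpc6 and Sdc2 was not tested.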

How the data were processed

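Hindlimb bud RNA of 12 Nipbl+/- and 12 wild type embryos was hybridised to Affymetrix Mouse Gene ST arrays, 1 embryo per array. The authors used GenePattern (Expression File Creator) on the scanner files, with RMA as the method named in the submitters' processing notes, version not given. The deposited values are therefore log2 intensities, for which RMA removes background, quantile-normalizes probes and combines them by set, and this can hide a shift common to most genes. The deposited arrays still differed: medians ran from 7.24 to 7.39 and interquartile ranges from 3.40 to 3.84 in Nipbl+/- and from 3.34 to 3.78 in wild type embryos, and 0 arrays were identical to another. The number of arrays limits the precision.

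Of 28159 probe sets, 21640 carried a single symbol, 1321 carried several (left unnamed) and 5198 carried none. Symbols were updated by Entrez ID to RefSeq genes of GRCm38.p6, and the probe set with the highest mean was taken for each of 19937 genes. Genotypes were compared with limma 3.58.1 in R 4.3.3 and Benjamini-Hochberg adjustment over all genes. On simulated data of this size (19937 genes, 12 against 12), the fit recovered 16% of genes changed by a log2 value of 0.15, 36% at 0.2 and 84% at 0.3, of 50 each, with 4 false calls. Alternatives changed the choice of probe set, left out dim genes, or used a trended variance, array weights, a t-test of linear intensities or replicate number as a block. Others set array medians to 0, or had covariates for the first residual principal component or each array's interquartile range, or left out each embryo in turn. The embryo sex covariate was a continuous score, Xist minus the mean of Y-linked genes. The differences within and between the sexes, where each embryo was called by the sign of that score, were added after seeing the data. So was the sex covariate together with array medians. Correlations used 100000 permutations within genotype. Genes named were all members, the called genes of each list and up to 2 per direction with the smallest p, the 3 genes most like Gpc4 and Gpc6, and Nipbl. Members and lists were chosen with earlier results of these data known. Figures were drawn with matplotlib 3.10.9.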

Additional observations from a re-analysis of the deposited data

How the results depend on the processing

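Of the members' differences, those of Gpc6 and Sdc2 kept their direction and call in all 10 planned settings, and those of the members other than Gpc1, Gpc4, Gpc6 and Sdc2 were past the threshold in none. For 1 of the 10, the mean of all probe sets, the members' values did not change, as each had 1 probe set. The log2 difference of Gpc4 lost its call with a t-test on linear values (0.19), a replicate block (0.19), an embryo sex covariate (0.18) and array medians set to 0 (0.20), and within females (0.14) and males (0.21). In each of the first 4 settings, and with sex and array medians together, 1 member was called higher. Within each sex, where fewer embryos were compared, the calls of Gpc6 (0.17 and 0.28) and Sdc2 (-0.32 and -0.31) were lost too. Gpc1 passed with the interquartile range covariate (-0.12), where 2 members were called lower. Sdc4 turned sign with array weights (-0.032, from 0.013).

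With 1 embryo left out, 1 to 2 members were higher and 1 was lower, Gpc4 ran from 0.17 to 0.20, Gpc3 from -9.18e-04 to 0.018 and Sdc4 from -0.011 to 0.025, and 1 to 2 trimming genes were called. That list had 1 call with the t-test on linear values, the sex covariate and array medians set to 0, where Sulf1 was lost, and 3 with the first principal component or the interquartile range, where Mmp16 joined. With sex and array medians together, Sulf1 and Pcsk6 were both lost. The chain modification list had 0 calls with the sex covariate and 2 with the first principal component (Hs3st1 and Hs2st1, of which Hs2st1 was higher). The list of syndecan partners had 1 call, Fn1, with a trended and robust variance, the first principal component and the interquartile range covariate. The correlation of Gpc3 and Gpc4 passed with array medians set to 0 (r = 0.71). The causes of these changes were not tested.

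Over all genes 57 were higher and 105 lower, against 37 and 67 with array medians set to 0, 101 and 180 with array weights, 222 and 293 with the first principal component, 186 and 303 with the interquartile range, 30 and 95 with the sex covariate, and 20 and 63 with sex and array medians together. Setting the medians to 0 moved the median of all genes to 0.0068, from -0.0049. The embryos were littermates across genotypes, but the labels do not say that a replicate number marks a litter, and same-numbered embryos were not treated as pairs: over the 2000 most variable genes their deviations had r from -0.41 to 0.42 (median 0.118, against -0.0086 for other pairs), over 0.1 in 7 of 12 pairs, and 3 of 24 embryos correlated best with their own number. The replicate block changed no member's call other than that of Gpc4, and gave Sdc3 an adjusted p of 0.0922 from limma, against 0.217 without it. Changes under a log2 value of 0.2 were mostly not recovered in simulated data, where genes varied independently of one another. Of the 7 members without a call, the 95% intervals of Gpc5 and Sdc3 reached a log2 difference of -0.2.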

Other observations

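By Pearson r of the deviations from genotype means over the 24 embryos, the genes most like Gpc6 among 19936 others were the flippase gene Atp10d (r = 0.79), Hspg2, which encodes the heparan sulfate proteoglycan perlecan (0.77), and the autophagy regulator Rubcn (0.77). None of these 3 passed the genotype test by limma (log2 differences 0.17, 0.018 and -0.0033). For Gpc4 they were the deubiquitinase Usp32 (0.89), Tmem170b (0.87) and Trpc4ap (0.86), with log2 differences of 0.050, 0.026 and 0.028. For Sdc2, added after its values were seen, they were Pigc, an enzyme of GPI anchor synthesis (0.82), the collagen lysyl hydroxylase Plod2 (0.80) and Ociad1 (0.79). These values are the highest of many and share the arrays on which they were measured, so they are given as a description.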
